A study of Mus musculus with 18 samples.

Results

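GW4064, a synthetic agonist of the bile acid receptor FXR, was compared with vehicle in livers whose hepatocytes lacked FXR (liver FXR knockout), to ask what the agonist still did when the receptor was missing from hepatocytes but kept elsewhere in the body. The comparison was chosen by sample title and took 3 GW4064 arrays and 3 vehicle arrays, 6 of the 18 arrays of the series, across all 12394 measured genes. The other 12 arrays, 3 vehicle and 3 GW4064 from wild type (WT) mice and from whole-body FXR knockout mice, entered the same fit and serve here to show where the liver knockout differed. All mice were males of 10 to 16 weeks on a C57BL/6J background. In the liver knockout, floxed Fxr alleles had been crossed to an albumin-Cre transgene, which deletes in hepatocytes and leaves the gene in Kupffer, endothelial and stellate cells and in the intestine, and in the whole-body knockout the gene was disrupted in every tissue. Per the labels, GW4064 was given as 2 oral doses of 150 mg/kg, in the evening and the next morning, or vehicle was given at the same times, and the liver was taken 2 h after the last dose. The study's methods describe another dose and schedule, for WT mice only. The labels name 3 replicates a group and do not say how mice were allocated to days, cages or litters, so the p-values measure only the spread between these samples.

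FXR, the product of Nr1h4, senses bile acids and represses their synthesis by way of both the liver and the intestine. In hepatocytes it induces Nr0b2, which encodes the corepressor SHP, and in the ileum it induces Fgf15, a hormone that travels to the liver and acts through the receptor FGFR4 with its partner beta-Klotho (Klb) and the MAP kinase cascade. Both routes are known to lower Cyp7a1, the rate-limiting enzyme of bile acid synthesis, and Cyp8b1, the sterol 12-alpha-hydroxylase that sets the share of cholic acid. SHP acts on promoters through the orphan receptor LRH-1 (Nr5a2) and through HNF4A.

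The genotype was checked first. Nr1h4 expression, on the log2 scale of the array, was 4.46, 4.29 and 4.63 in the liver knockout vehicle arrays and 4.17, 4.69 and 4.37 in the GW4064 arrays. All 6 values lay far below the 6 WT arrays, which ranged from 8.83 to 9.39, and close to the whole-body knockout arrays, which ranged from 3.98 to 4.30. Fgf15 lay between 4.25 and 4.46 in the 6 liver knockout arrays, in the same low range as Nr1h4 there, and its ileal expression was not measured. The hepatocyte markers Alb (14.78 to 14.89 over the 6 arrays) and Ttr (14.72 to 14.80) were near the top of the scale throughout. The 6 arrays had an interquartile range of relative log expression of 0.127 to 0.190, whereas WT GW4064 replicate 1, at 0.259, and whole-body knockout GW4064 replicate 3, at 0.231, stood apart from all others. WT and whole-body knockout values include those 2 arrays. Without them, the main counts are given again, and so is the value of a gene or list where it turned sign or differed by over 1.5 times, and by at least 0.1 log2 units.

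No gene passed an adjusted p of 0.05 in the liver knockout by limma, and none did by the methods' t-test. Without adjustment, limma gave 622 of 12394 genes (5.02%) with p under 0.05, 320 higher (2.58%) and 302 lower (2.44%) with GW4064, and the t-test gave 402 higher and 386 lower. The median log2 fold change over all genes was -0.0021 and the median size 0.0726. At the study's thresholds, an unadjusted p under 0.05 and at least 1.5 fold, 28 genes were higher (0.226%) and 29 lower (0.234%), of which 8 and 10 reached 2 fold. The same thresholds passed 212 genes (1.71%) in WT and 67 (0.541%) in the whole-body knockout, and the adjusted test passed 24 genes (0.194%) in WT and 0 in the whole-body knockout, where 775 genes (6.25%) had an unadjusted p under 0.05. Without the 2 arrays that stood apart, 1 in WT and 1 in the whole-body knockout, the WT count was 3. The count of 0 in the liver knockout became 2 (Csad and Igfbp1) without GW4064 replicate 2, 1 (Etfbkmt) without GW4064 replicate 3, and 2 (Csad and Trim24) without the 2 arrays that stood apart. In the accounts below, "higher" or "lower" refers to the group means.

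The gene with the lowest p was Csad, which encodes cysteine sulfinic acid decarboxylase, an enzyme of taurine synthesis and so of bile acid conjugation. Csad expression was 10.21, 10.45 and 10.88 in the vehicle arrays and 8.45, 8.94 and 8.17 in the GW4064 arrays. The groups did not overlap, and every GW4064 array was more than 1 log2 unit below every vehicle array. The log2 fold change was -1.99 ± 0.30 (SE), a 3.97-fold lower level, with an adjusted p of 0.0704 by limma. WT livers gave -2.76 (adjusted p = 0.000965) and whole-body knockout livers -0.28. The liver knockout and WT values differed by 0.77 (95% confidence interval -0.14 to 1.68), and the liver and whole-body knockout values by -1.71 (-2.62 to -0.80), with adjusted p-values of 0.731 and 0.616. Without the 2 arrays that stood apart, the difference from WT was 0.47. Within the set of arrays compared here alone, and with the replicate number as a block, Csad passed the adjusted threshold.

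Dnase2a, the acid nuclease that digests DNA in lysosomes, followed the same order. It was at 10.64, 10.58 and 10.91 with vehicle and at 9.18, 9.30 and 8.60 with GW4064, again without overlap. This gave a log2 fold change of -1.69 ± 0.37 (adjusted p = 0.305), beside -2.11 in WT (adjusted p = 0.0433) and -0.24 in the whole-body knockout (-1.65 and -0.37 without the 2 arrays that stood apart). Ugdh, the enzyme that makes UDP-glucuronic acid for glucuronidation, was at 11.56, 11.49 and 11.74 with vehicle and at 11.07, 10.74 and 10.93 with GW4064. This difference was small in size, -0.68, but its SE was 0.13, and WT gave -0.51 and the whole-body knockout 0.20. The liver minus whole-body knockout difference for Ugdh was -0.89 (95% confidence interval -1.28 to -0.50, adjusted p = 0.366).

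**Figure D1:**
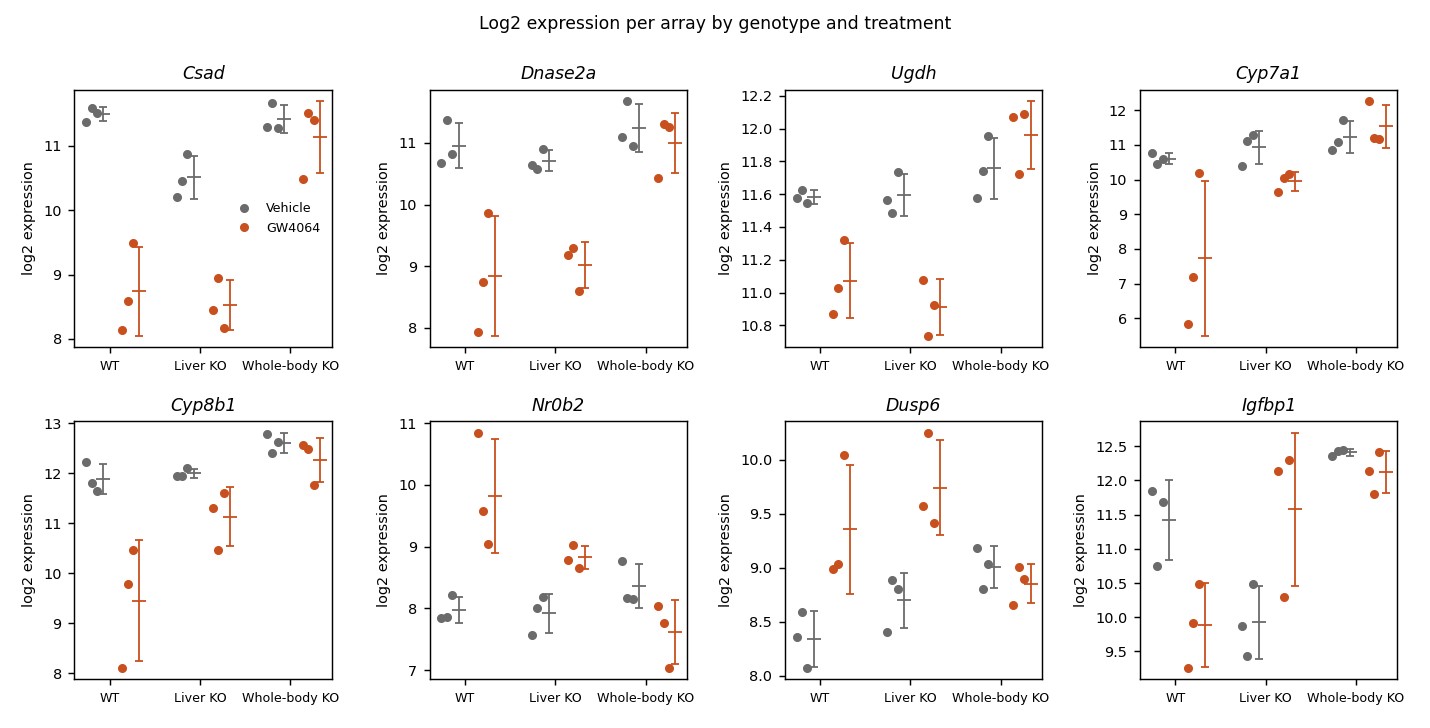
Log2 expression of 8 genes on each of the 18 arrays, by genotype and treatment; points are arrays, and the dash with bars beside them is the group mean ± SD of 3 arrays. In the liver knockout, the vehicle and GW4064 arrays of Csad, Dnase2a, Ugdh, Cyp7a1, Cyp8b1, Nr0b2 and Dusp6 do not overlap, and those of Igfbp1 do, with GW4064 values of 12.14, 10.29 and 12.30.

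Nr0b2, the transcript of SHP, was 7.56, 8.01 and 8.18 with vehicle and 8.78, 9.04 and 8.66 with GW4064. All 3 GW4064 arrays lay above all 3 vehicle arrays. The log2 fold change was 0.91 ± 0.34, or 1.88-fold (adjusted p = 0.894), against 1.85 in WT (adjusted p = 0.0433) and -0.75 in the whole-body knockout. The difference from WT was -0.94 (95% confidence interval -1.97 to 0.08) and from the whole-body knockout 1.65 (0.63 to 2.68), and neither passed the adjusted test (adjusted p = 0.7 and 0.815). Without the 2 arrays that stood apart, Nr0b2 had 1.34 in WT and -0.46 in the whole-body knockout, and the difference from WT was -0.43. Liver holds other FXR-expressing cells after albumin-Cre deletion, and these arrays of whole liver cannot tell fewer cells of a type from less RNA per cell, nor say which cells held the transcript.

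Of the enzymes of bile acid synthesis, 19 were measured, and 0 of them had an unadjusted p under 0.05 with a higher level and 2 with a lower one, against 2.44% of all genes. These were Hsd3b7 (log2 fold change -0.29) and Cyp27a1 (-0.38), an early enzyme of the classical pathway and the first enzyme of the acidic pathway. In WT they had -0.20 and -0.29, and in the whole-body knockout -0.24 and -0.33. Without the 2 arrays that stood apart, they had -0.08 and -0.17 in WT and -0.16 and -0.13 in the whole-body knockout. The list's median was -0.04. Cyp7a1 was 10.38, 11.13 and 11.29 with vehicle and 9.64, 10.04 and 10.17 with GW4064, without overlap. Its log2 fold change of -0.98 ± 0.69 (95% confidence interval -2.44 to 0.48) had a wide error. Cyp7a1 spread from 5.82 to 10.19 over the WT GW4064 arrays, and the fit shares its spread over groups. WT gave -2.87 and the whole-body knockout 0.32, and the difference from WT was 1.89 (-0.18 to 3.96). Cyp8b1 was 11.94, 11.96 and 12.11 with vehicle and 11.30, 10.48 and 11.61 with GW4064, also without overlap. Its log2 fold change was -0.87 ± 0.42, smaller than the -2.44 of WT by 1.57 (0.32 to 2.81, adjusted p = 0.589), and the whole-body knockout gave -0.34. Without the WT array that stood apart, the WT values were -1.92 for Cyp7a1 and -1.77 for Cyp8b1, and the differences from WT 0.94 and 0.90. The whole-body knockout values were 0.50 and -0.09 without the array that stood apart there.

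The upstream sequences of 3 of these genes are shown because Nr0b2 was higher while Csad and Cyp8b1 were lower in the same arrays, and because SHP is known to act through LRH-1. They run from 250 bases before to 50 bases after the annotated start, on the gene's own strand, as RefSeq gives them for mouse build GRCm38.p6. Capitals mark the core letters CAAGGNC of the LRH-1 half-site, searched on both strands.
Nr0b2, chr4:133553126-133553425, plus strand: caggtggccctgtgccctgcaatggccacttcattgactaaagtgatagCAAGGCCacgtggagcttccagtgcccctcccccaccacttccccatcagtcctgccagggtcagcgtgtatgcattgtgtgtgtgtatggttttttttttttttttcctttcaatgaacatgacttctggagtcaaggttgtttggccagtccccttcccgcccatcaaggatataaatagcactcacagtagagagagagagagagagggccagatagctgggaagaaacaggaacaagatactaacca
Csad, chr15:102205003-102205302, minus strand: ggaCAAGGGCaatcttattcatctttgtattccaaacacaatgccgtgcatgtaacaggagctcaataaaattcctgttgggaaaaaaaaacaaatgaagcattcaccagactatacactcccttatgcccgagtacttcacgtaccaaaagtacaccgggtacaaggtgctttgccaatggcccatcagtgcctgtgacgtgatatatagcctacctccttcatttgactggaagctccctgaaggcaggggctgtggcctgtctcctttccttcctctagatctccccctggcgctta
Cyp8b1, chr9:121916256-121916555, minus strand: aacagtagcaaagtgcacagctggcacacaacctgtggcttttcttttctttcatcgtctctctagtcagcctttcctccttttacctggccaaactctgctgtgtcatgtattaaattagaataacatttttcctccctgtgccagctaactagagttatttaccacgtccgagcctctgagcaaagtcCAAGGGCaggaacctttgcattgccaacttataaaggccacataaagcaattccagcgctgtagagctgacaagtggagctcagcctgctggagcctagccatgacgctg
The capitals begin 201 bases before the start in Nr0b2, 247 before it in Csad and 60 before it in Cyp8b1. The same letters stand in 17.8% of the 32851 promoter windows of the table, so a match in these windows is a description of sequence only. A second annotated Csad start, at chr15:102188994-102189293, has no match. The FXR half-site AGGTCA was not found in the windows shown and stands in 16.3% of all windows, and its inverted repeat with 1 spacer base stands in 3 of them.

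Among transporters of bile acids and biliary lipids, 11 were measured and 2 were higher at an unadjusted p under 0.05, against 2.58% of all genes. Abcc3, the basolateral export pump MRP3, was 9.08, 9.16 and 9.49 with vehicle and 9.70, 9.97 and 10.21 with GW4064. These groups did not overlap, and the log2 fold change was 0.72 ± 0.24, beside -0.06 in WT and 0.28 in the whole-body knockout (-0.10 without the array that stood apart). Slc51a, a subunit of the basolateral OST transporter and a known FXR target, was low on the array (4.11 to 4.32 with vehicle, 4.54 to 4.57 with GW4064), with a log2 fold change of 0.33. Abcb11, the canalicular bile salt export pump and another known FXR target, ranged from 10.96 to 11.02 in the vehicle arrays and from 10.83 to 11.01 in the GW4064 arrays, a log2 fold change of -0.09. Slc10a1, the uptake transporter NTCP, had -0.07. A list of 21 measured genes joined known FXR targets with genes that the study discusses, some of them only in human hepatocytes, and was drawn up with results of these arrays known, so it is no independent evidence of direction. Of these, 3 were higher (Nr0b2, Slc51a and Uroc1) and 1 lower (Csad) at an unadjusted p under 0.05, against 2.58% and 2.44% of all genes, and the median was 0.04.

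The genes of SHP and FGF15 signalling gave 3 higher and 1 lower of 13 measured at that threshold, against 2.58% and 2.44% of all genes, and a median of -0.02. Klb, the co-receptor of FGF15, was 8.12, 8.59 and 8.38 with vehicle and 8.36, 9.09 and 8.95 with GW4064, with a log2 fold change of 0.44 and overlapping groups, and its second probe set gave -0.14. Fgfr4 itself had -0.17, Hnf4a -0.02 and Nr5a2 0.14, the last ranging from -0.22 to 0.47 as single arrays were left out. Fgf21, a fasting hormone that also uses beta-Klotho, had 0.34, and Fgfr3 had -0.38. Downstream of FGF receptors, Dusp6, the ERK phosphatase that ERK signalling itself induces, was 8.41, 8.89 and 8.80 with vehicle and 9.57, 10.25 and 9.41 with GW4064. All 3 GW4064 arrays were above all vehicle arrays, and the log2 fold change of 1.04 ± 0.25 (adjusted p = 0.448) stood beside 1.01 in WT. The whole-body knockout gave -0.15, and the difference from it was 1.20 (95% confidence interval 0.44 to 1.95, adjusted p = 0.84). Egr1, an early transcription factor that ERK signalling also induces, had 0.49 without overlap in the liver knockout and -1.53 in WT. Of other such genes, Spry2 had 0.15, Spry4 0.16, Junb 0.21 and Fos -0.15, the last being 0.21 without GW4064 replicate 2. Of the 18 immediate early and MAPK genes, 1 was higher (Dusp6) and 1 lower at an unadjusted p under 0.05, close to the 2.58% and 2.44% of all genes. The lower one was Myc, the growth-promoting transcription factor, at -0.94 ± 0.31, beside -0.76 in WT and 0.12 in the whole-body knockout.

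The 12 leading genes on each side were those with the lowest p among genes past the study's thresholds whose arrays did not overlap. Their liver knockout values chose them and are a description. On the higher side, Trim24, a nuclear receptor coregulator, was 6.46, 6.55 and 6.71 with vehicle and 7.40, 8.12 and 7.64 with GW4064, with a log2 fold change of 1.15 ± 0.30. Trim24 had 1.13 in WT and 0.67 in the whole-body knockout (0.25 without the array that stood apart), so its values were of one sign in all 3 genotypes. Cyp26a1, which clears retinoic acid, was 7.15, 7.15 and 6.76 with vehicle and 7.47, 8.95 and 8.11 with GW4064, a log2 fold change of 1.15 ± 0.34 beside 0.70 in WT and -0.07 in the whole-body knockout (-0.24 without that array). Etfbkmt, a methyltransferase that acts on the mitochondrial electron transfer flavoprotein, was 9.30, 8.73 and 9.09 with vehicle and 10.36, 10.24 and 9.53 with GW4064. The log2 fold change of 1.0 ± 0.20 (adjusted p = 0.191) stood beside -0.24 in WT and 0.59 in the whole-body knockout.

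Several leading genes on that side had smaller values in WT. Frmd4b, a scaffold protein, had 0.89 in the liver knockout and 0.06 in WT (0.19 without the WT array that stood apart), and all 4 of its probe sets were higher at an unadjusted p under 0.05. Pigr, the receptor that carries immunoglobulin A into bile, had 0.59 and 0.00 (0.12). Rarres2, which encodes chemerin, had 0.80 and -0.06, Dclre1a, a nuclease of crosslink repair, 0.81 and -0.10 (0.00), and Maff, a small MAF transcription factor, 0.62 and -0.06 (0.07), with the WT value without that array in parentheses. The 3 probe sets of Rarres2 ranged from 0.02 to 0.80, and 2 of them were higher at an unadjusted p under 0.05. Stbd1, which binds glycogen, was 9.41, 9.71 and 9.56 with vehicle and 10.19, 10.25 and 10.14 with GW4064, a tight separation with a log2 fold change of 0.63 ± 0.12 and 0.24 in WT (0.11 without that array). G0s2, an inhibitor of the lipase ATGL, had 1.20 ± 0.38 beside 0.44 in WT (0.29 without that array), with vehicle replicate 3 at 7.08 well under the other vehicle arrays at 8.32 and 8.61. Pitpnc1, a phosphatidylinositol transfer protein, had 0.61 beside 0.28 in WT (0.50 without that array), with all 9 of its probe sets higher and 8 of them at an unadjusted p under 0.05.

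On the lower side, 3 genes of growth and cytokine responses had large differences. Cish, an inhibitor of cytokine and growth hormone signalling induced by STAT5, was 9.81, 9.22 and 9.38 with vehicle and 7.34, 7.77 and 8.53 with GW4064, a log2 fold change of -1.59 ± 0.42 beside -0.61 in WT and 0.44 in the whole-body knockout (0.85 without the array that stood apart). Id3, an inhibitor of helix-loop-helix factors induced by BMP signalling, was 8.96, 8.75 and 8.13 with vehicle and 6.23, 7.92 and 7.50 with GW4064, with GW4064 replicate 1 lowest. It had a log2 fold change of -1.40 ± 0.38, beside 0.01 in WT and -0.41 in the whole-body knockout (-0.14 and -0.27 without the 2 arrays that stood apart). Phlda1 had -1.75 ± 0.53, but its vehicle replicate 1, at 12.43, was more than 1 log2 unit above the other vehicle arrays, at 11.24 and 10.94.

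Hhex and Foxa1, both transcription factors of liver development, had log2 fold changes of -0.82 ± 0.21 and -0.82 ± 0.27. In WT they had -0.47 and -0.17. Me1, malic enzyme, which makes NADPH for lipid synthesis, was 10.23, 10.50 and 10.91 with vehicle and 9.55, 9.20 and 10.04 with GW4064. Its log2 fold change was -0.95 ± 0.32, beside -1.20 in WT and -0.29 in the whole-body knockout (-0.05 without the array that stood apart). Tceal8 (-0.59) and Tmem267 (-1.03), whose roles in liver are little known, had 0.00 and 0.13 in WT, the first being -0.11 without the WT array that stood apart.

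**Figure D2:**
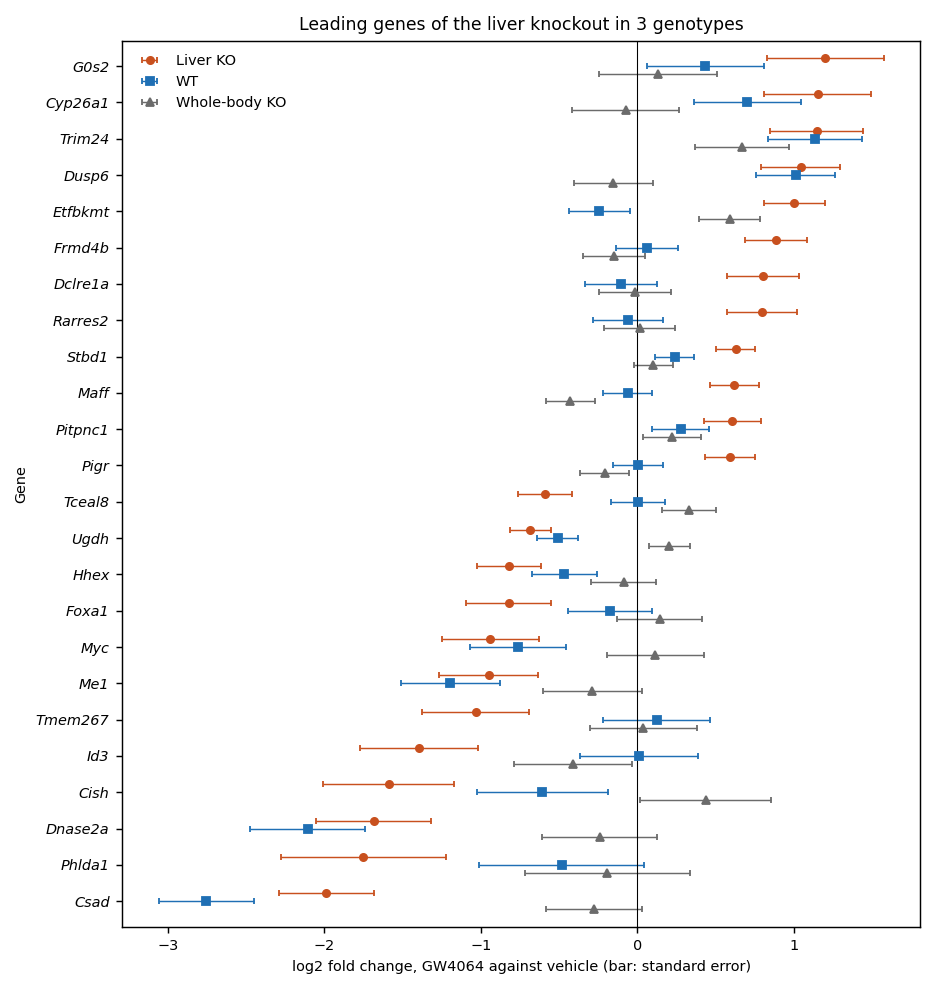
Log2 fold change of GW4064 against vehicle (horizontal axis, with its standard error) for the 24 leading genes of the liver knockout, in liver knockout, WT and whole-body knockout livers. The liver knockout values chose the genes; Csad, Dnase2a, Me1, Myc, Dusp6 and Trim24 have WT values of the same sign and similar size, whereas Etfbkmt, Frmd4b, Rarres2, Pigr, Id3 and Tmem267 have WT values between -0.24 and 0.13.

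The liver knockout values of the 57 genes past the study's thresholds (0.46% of genes) are those that chose them, but the WT and whole-body knockout arrays played no part in the choice apart from the shared estimate of spread. In WT, 39 of the 57 had the same sign, 19 (33.3%) had an unadjusted p under 0.05 in the same direction and 4 in the opposite one, against 12.6% of all genes in either direction. In the whole-body knockout, 28 of the 57 had the same sign, 3 (5.26%) had an unadjusted p under 0.05 in the same direction and 7 in the opposite one, against 6.25% of all genes. The 16 genes past the study's thresholds in the same direction in both liver knockout and WT were 28.1% of the liver knockout genes and 7.55% of the 212 WT genes. Without the 2 arrays that stood apart, 46 of the 57 had the same sign in WT, 19 had an unadjusted p under 0.05 in the same direction and 2 in the opposite one, against 8.12% of all genes, and in the whole-body knockout 26 had the same sign, with 2 and 3 at that threshold, against 3.95%. Across all genes, the log2 fold changes of the liver knockout and WT had r = 0.114 and those of the liver and whole-body knockout 0.0112, as a description over genes, which are not independent replicates.

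The reverse view took the 24 genes past the adjusted test in WT and read them in the liver knockout. Of the 24, 16 had the same sign, 7 of 12 that were higher in WT and 9 of 12 that were lower. With an unadjusted p under 0.05, 6 (25%) had the WT direction and 0 the opposite one, against 5.02% of all genes. These 6 were Csad, Dnase2a, Nr0b2, Usp2, Ripk4 and Ppfibp2. In the whole-body knockout 2 of the 24 had the WT direction at that threshold (8.33%), against 6.25% of all genes. Nr0b2, at -0.75 there, had the opposite direction at that threshold. Without the 2 arrays that stood apart, the counts in the WT direction were 7 and 3, against 6.04% and 3.95% of all genes. Each of the 3 genes that then passed in WT had the WT direction in the liver knockout with an unadjusted p under 0.05. Without overlap, 8 of the 24 had the WT direction, adding Cyp8b1 and Eps8l2, and 1 the opposite, Acot1, against 12.2% of all genes. The median log2 fold change, signed by the WT direction, was 0.784 in WT, where it chose the genes, 0.076 in the liver knockout and 0.0432 in the whole-body knockout.

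Usp2, a clock-controlled ubiquitin protease, was 7.93, 8.28 and 8.24 with vehicle and 8.50, 8.85 and 8.93 with GW4064. The difference of 0.61 ± 0.22 lay between WT at 1.42 and the whole-body knockout at -0.28 (-0.14 without the array that stood apart). Ripk4, a protein kinase, had 0.49 in the liver knockout and 0.75 in WT, and Ppfibp2, a liprin, -0.29 and -0.60. Other WT genes were near 0 in the liver knockout. Bmp6, the growth factor that controls hepcidin, had 0.06 against -0.57, Xdh, xanthine dehydrogenase, 0.04 against 0.49, and Rell1 -0.11 against -0.97. In the whole-body knockout Bmp6 had -0.36, without overlap and with an unadjusted p of 0.00136 by limma. Xdh had -0.14 there and Rell1 -0.02. Lcn2, the iron-sequestering lipocalin, was 8.34, 9.52 and 8.42 with vehicle and 7.97, 7.54 and 9.39 with GW4064, and had -0.46 ± 1.05 against 5.50 in WT (4.47 without the WT array that stood apart).

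**Figure D3:**
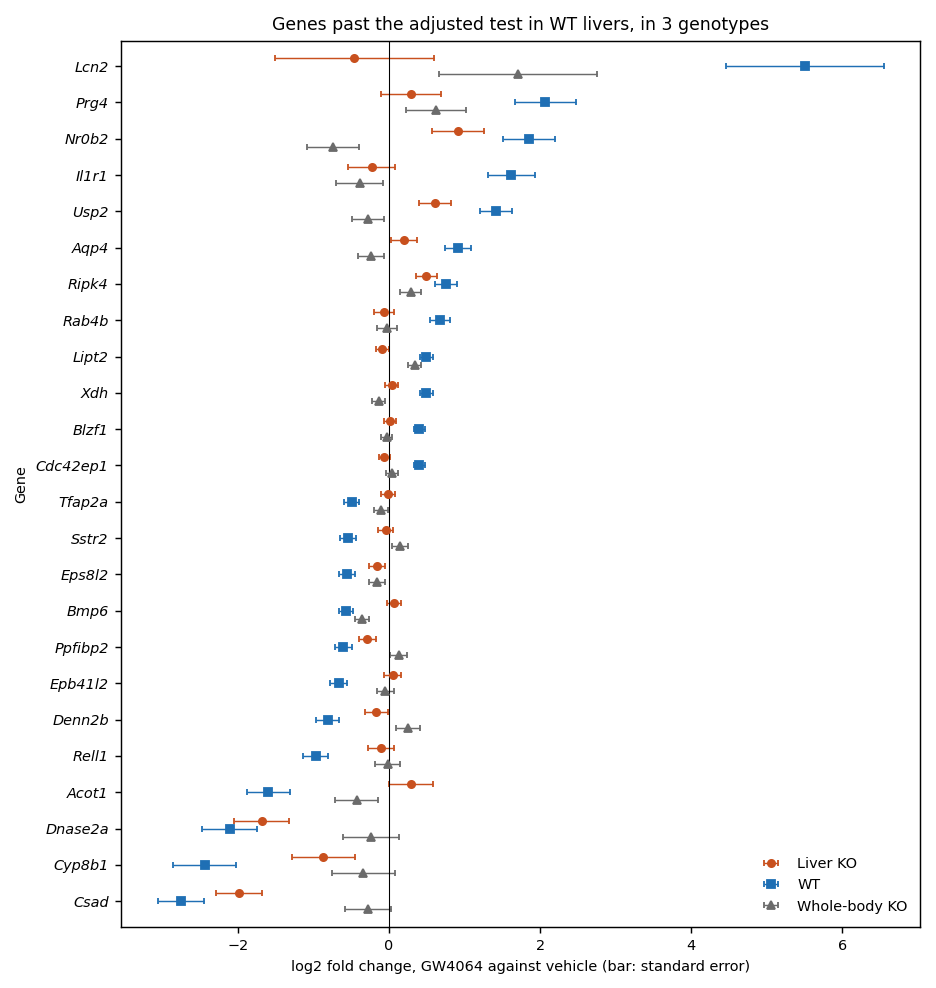
Log2 fold change of GW4064 against vehicle (horizontal axis, with its standard error) for the 24 genes past the adjusted test in WT livers, in the 3 genotypes. WT values chose the genes; in the liver knockout Csad, Dnase2a, Nr0b2, Usp2, Ripk4 and Ppfibp2 keep the WT sign with an unadjusted p under 0.05, and Lcn2, at -0.46, has a wide error.

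The difference of the GW4064 effects between liver knockout and WT passed the adjusted test for 0 genes by limma, with 925 genes (7.46%) at an unadjusted p under 0.05. That count became 50 without WT GW4064 replicate 3 and 1 (Igfbp1) without liver knockout GW4064 replicate 2, and stayed 0 without the 2 arrays that stood apart. The 50 genes included the acute-phase genes Saa1 and Saa2, close paralogs that probe sets may not separate, Saa3, Orm1 and Lcn2, and also Igfbp1, G6pc, Acot1 and Cyp7a1. Against the whole-body knockout 0 genes passed, with 604 (4.87%) at an unadjusted p under 0.05. That count became 1 without liver knockout GW4064 replicate 1 (Fars2), without GW4064 replicate 2 (Alas1) or without whole-body knockout GW4064 replicate 2 (Mfsd4b1), and stayed 0 without the 2 arrays that stood apart.

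Genes of fasting and insulin response were among those with the lowest p for the difference from WT. Igfbp1, an insulin-repressed binding protein of IGF, was 9.87, 9.43 and 10.49 with vehicle and 12.14, 10.29 and 12.30 with GW4064 in the liver knockout. GW4064 replicates 1 and 3 were above all vehicle arrays, while replicate 2 lay within their range. Its log2 fold change was 1.65 ± 0.44 (adjusted p = 0.568), against -1.53 in WT and -0.29 in the whole-body knockout, whose vehicle arrays were already at 12.36 to 12.44. The difference from WT was 3.18 (95% confidence interval 1.87 to 4.49, adjusted p = 0.437), and 2.87 without the 2 arrays that stood apart, where the whole-body knockout value was -0.44. G6pc, the glucose-6-phosphatase that releases glucose, was 11.39, 11.28 and 11.77 with vehicle and 12.83, 11.88 and 12.13 with GW4064, without overlap, a log2 fold change of 0.80 ± 0.34 against -1.53 in WT. The difference was 2.33 (1.31 to 3.35, adjusted p = 0.437), and 1.83 without those arrays. Of 17 genes of gluconeogenesis and insulin response, 12 were above 0, against 49.2% of all genes. At an unadjusted p under 0.05, 4 were higher (Igfbp1, G6pc, Sik1 and Tat) and 0 lower, against 2.58% and 2.44%, and the median was 0.14 against -0.01 in WT (0.05 without the array that stood apart) and -0.13 in the whole-body knockout. Pck1, which encodes the enzyme that commits carbon to gluconeogenesis, had 0.30 and 0.44 in the liver knockout and WT. The muscle and liver ubiquitin ligase gene Fbxo32, a FOXO target, had 0.45 against -0.47 in WT.

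Most PPARalpha targets and genes of fatty acid oxidation lay a little above 0. Of 26 measured, 23 were above 0, against 49.2% of all genes, and 10 did not overlap between groups in that direction, against 6.11% of all genes, while 3 had an unadjusted p under 0.05, against 2.58%. Their median was 0.12, beside -0.06 in WT (-0.14 without the array that stood apart) and -0.04 in the whole-body knockout. Angptl4, an inhibitor of lipoprotein lipase, was 9.65, 9.92 and 10.02 with vehicle and 10.56, 10.09 and 10.67 with GW4064, a log2 fold change of 0.58 ± 0.25 beside 0.01 in WT and -0.72 in the whole-body knockout (-0.43 without the array that stood apart), and its second probe set gave 0.05. Bdh1, a ketone body enzyme, had 0.45 ± 0.14, with 0.02 from its second probe set, and Ppara itself had 0.31. Acot1, an acyl-CoA thioesterase that is a PPARalpha target, was 7.27, 7.28 and 7.13 with vehicle and 7.31, 7.51 and 7.72 with GW4064, a log2 fold change of 0.29 ± 0.29 against -1.60 in WT (adjusted p = 0.0433). Acot1 and its neighbours Acot2, Acot3 and Acot4 are close paralogs, and probe sets may not separate them.

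Most genes of cholesterol synthesis and uptake lay below 0, 14 of 17 measured, against 50.8% of all genes, with a median of -0.40, beside -0.44 in WT and -0.27 in the whole-body knockout (-0.14 without the array that stood apart). At an unadjusted p under 0.05, 6 were lower and 0 higher, against 2.44% of all genes in that direction. Msmo1, the sterol C4 methyl oxidase, was 9.59, 10.21 and 10.15 with vehicle and 9.01, 9.48 and 9.16 with GW4064, without overlap, and had -0.77 ± 0.30. Nsdhl (-0.72), Sqle (-0.70), Fdps (-0.69), Dhcr7 (-0.68) and Pmvk (-0.57) followed, all of them enzymes of the pathway with groups that overlapped. Vehicle replicate 1 lay with the GW4064 arrays rather than with the other vehicle arrays. The list's median difference from the vehicle mean was -0.39 on that array and 0.15 and 0.22 on the other vehicle arrays, and -0.47, -0.22 and -0.41 on the GW4064 arrays. The list's median without vehicle replicate 1 is not given here, so the part of that array in the result is not described. Fatty acid and triglyceride synthesis genes had a median of -0.06, beside -0.50 in WT (-0.26 without the WT array that stood apart). Of 22 measured, Acss2, which makes acetyl-CoA from acetate, was lower at -0.82 and Me1 at -0.95, and Lpin2, a phosphatidate phosphatase of triglyceride synthesis, was higher at 0.42 without overlap.

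Most genes of the circadian clock lay above 0, 17 of 19 measured, against 49.2% of all genes. At an unadjusted p under 0.05, 5 were higher, against 2.58% of all genes, and 6 were higher without overlap, against 6.11%. The list's median was 0.30 in the liver knockout, 0.05 in WT (0.11 without the array that stood apart) and -0.12 in the whole-body knockout. The output factors Tef and Hlf each had 0.36 ± 0.13, Rora 0.31, Cry1 0.36 and Usp2 0.61. The second probe set of Hlf gave 0.05, and the 3 probe sets of Rora ranged from 0.08 to 0.40. Arntl, which encodes the activator BMAL1 and peaks in the opposite phase to those outputs, had -0.43, beside -0.95 in WT and 0.70 in the whole-body knockout. The difference from the whole-body knockout had an unadjusted p under 0.05 for 10 of the 19 genes, against 4.87% of all genes, and for 8 without the 2 arrays that stood apart, against 4.8%. Tef gave 0.77 there (95% confidence interval 0.38 to 1.16, adjusted p = 0.533). Its log2 fold change was 0.36 in the liver knockout, 0.27 in WT and -0.41 in the whole-body knockout, so both knockouts contributed to that difference. The labels give 1 harvest schedule for all mice and no time for each mouse, so harvest time within a genotype was not tested.

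The acute-phase genes had a median near 0 in the liver knockout. Single members lay between -1.53 and 0.26, some with wide errors, as for Saa2 at -0.71 ± 0.86. Of 29, 1 was lower at an unadjusted p under 0.05 and 0 higher, against 2.44% and 2.58% of all genes, and the median was -0.07 against 0.72 in WT and 0.17 in the whole-body knockout (0.03 without the array that stood apart). Saa1, the serum amyloid of the acute phase, was 13.07, 13.08 and 12.48 with vehicle and 12.70, 10.70 and 12.94 with GW4064, with replicate 2 alone far lower, and had -0.76 ± 0.50 against 2.45 in WT. The difference from WT had an unadjusted p under 0.05 for 18 of the 29, against 7.46% of all genes, and for 15 without the 2 arrays that stood apart, where the WT median was 0.51 and the share of all genes 6.2%. Socs3, the STAT3-induced inhibitor of cytokine signalling, was 10.05, 8.74 and 7.85 with vehicle and 7.16, 7.26 and 7.62 with GW4064. Its groups did not overlap, yet the vehicle arrays spread over more than 2 log2 units, and its log2 fold change was -1.53 ± 0.62 against 1.81 in WT. Of 25 interferon response genes, 20 were below 0, against 50.8% of all genes, 3 were lower at an unadjusted p under 0.05, against 2.44% (Usp18 at -0.69, Ifit1 at -0.58 and Ifih1 at -0.20), and the median was -0.11. Nfkbia, the inhibitor of NF-kB, was 11.11, 11.63 and 11.53 with vehicle and 12.12, 11.87 and 11.84 with GW4064, a log2 fold change of 0.52 ± 0.12 beside 0.04 in WT, while the 25 chemokine and NF-kB genes had a median of 0.00.

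**Figure D4:**
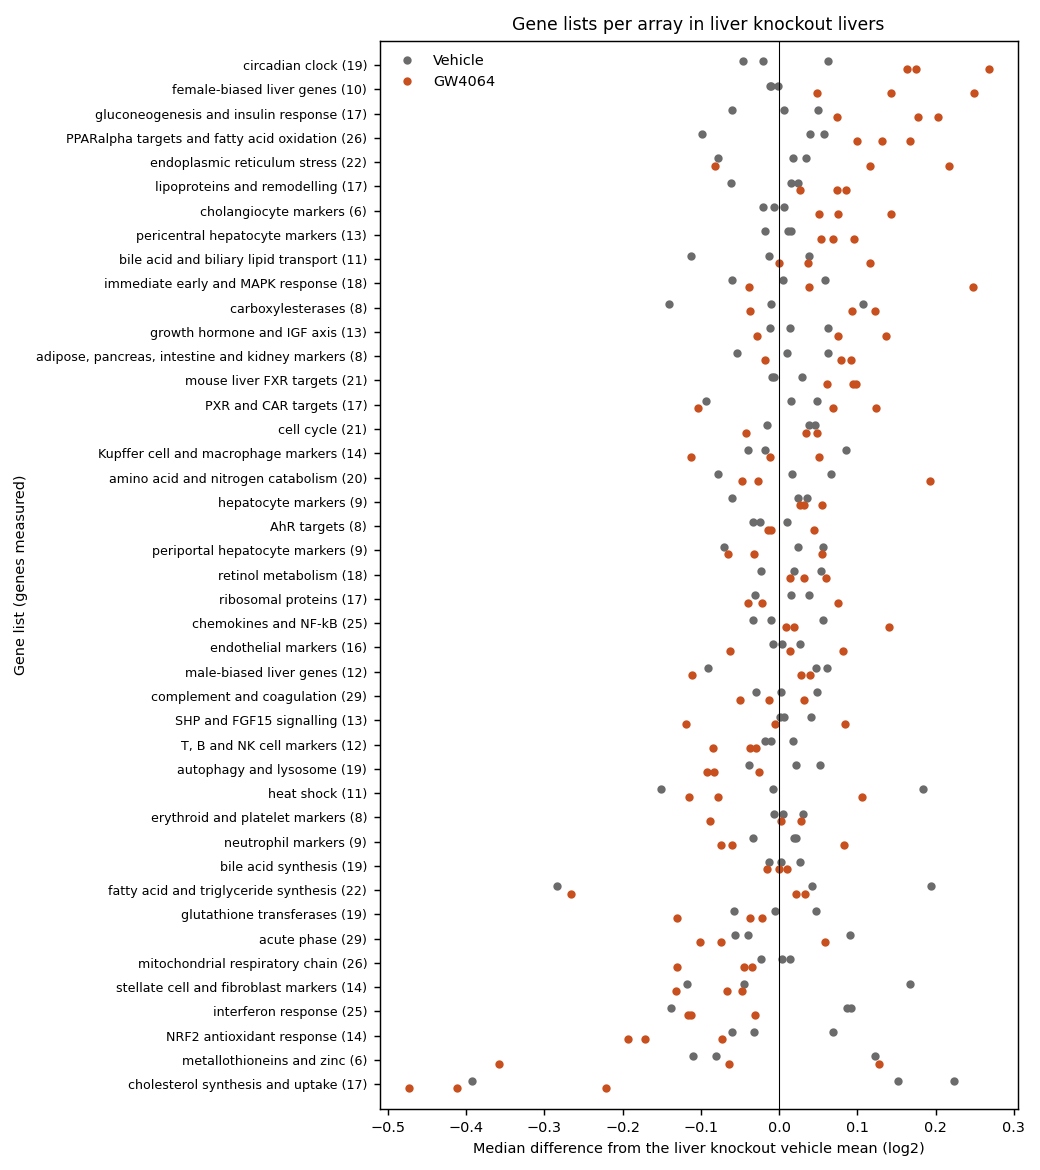
Median difference from the liver knockout vehicle mean (log2, horizontal axis) of each gene list on each of the 6 liver knockout arrays; the number of genes measured stands beside each list. The 3 GW4064 arrays lie above the 3 vehicle arrays for the circadian clock and PPARalpha lists. They also do so for the gluconeogenesis, lipoprotein, FXR target, female-biased, cholangiocyte and pericentral lists. They lie below the vehicle arrays for the NRF2, respiratory chain and lymphocyte lists. For cholesterol synthesis 1 vehicle array, at -0.39, lies among the GW4064 arrays.

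Among detoxification genes, the 14 NRF2 genes had a median of -0.14, 12 of them below 0, against 50.8% of all genes, with Ephx1, the microsomal epoxide hydrolase, at 11.87, 11.77 and 11.88 with vehicle and 11.33, 11.29 and 11.36 with GW4064. Ephx1 was clearly separated, with a log2 fold change of -0.52 ± 0.14 beside -0.56 in WT and 0.15 in the whole-body knockout (0.04 without the array that stood apart). Alas1, the first enzyme of heme synthesis, was 12.19, 12.68 and 12.37 with vehicle and 11.44, 12.24 and 11.65 with GW4064, which overlapped only by replicate 2 of the GW4064 group. It had -0.64 ± 0.21, beside 0.12 in WT and 1.04 in the whole-body knockout, and its difference from the whole-body knockout was -1.68 (95% confidence interval -2.29 to -1.06, adjusted p = 0.158). The lowest adjusted p for that difference was that of Fars2, a mitochondrial phenylalanine tRNA synthetase, at 0.101, with log2 fold changes of 0.39 and -0.35 in the liver and whole-body knockout. Of 17 PXR and CAR targets, 0 were higher and 1 lower at an unadjusted p under 0.05, against 2.58% and 2.44% of all genes. Cyp2b9, a female-biased and CAR-responsive enzyme, was 4.75, 5.68 and 4.89 with vehicle and 6.59, 6.48 and 8.29 with GW4064, without overlap, and had 2.01 ± 1.13 beside 0.08 in WT and 1.84 in the whole-body knockout, where 1 array decided the value, at 0.10 without the array that stood apart. The 19 glutathione transferases had a median of -0.06, the 8 AhR targets 0.02, the 8 carboxylesterases 0.05 and the 18 retinol genes 0.01, with Cyp26a1, Rarb (0.53) and Lrat (0.27) higher at an unadjusted p under 0.05, against 2.58% of all genes.

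The 26 genes of the mitochondrial respiratory chain had a median of -0.08, with 20 below 0, against 50.8% of all genes, and 8 that did not overlap in that direction against 6.13% of all genes, all by small amounts, the lowest being -0.22. The remaining lists are given by their medians, some of them further from 0 than that of the respiratory chain. Of the 10 female-biased genes, 9 were above 0, against 49.2% of all genes. Of these 10, 4 did not overlap in that direction, against 6.11%. Of the 17 lipoprotein genes, 14 were above 0 and 3 did not overlap in that direction, against 49.2% and 6.11% of all genes. At an unadjusted p under 0.05 by limma, 0 of them were higher and 0 lower, against 2.58% and 2.44%. Medians were -0.01 for 29 complement and coagulation genes, 0.07 for 17 lipoprotein genes, 0.02 for 20 genes of amino acid catabolism, 0.04 for 13 of the growth hormone axis, 0.10 for 22 of endoplasmic reticulum stress, -0.03 for 11 heat shock genes, 0.03 for 21 cell cycle genes, -0.03 for 19 of autophagy and lysosome, 0.01 for 17 ribosomal proteins, -0.16 for 6 of metallothionein and zinc, -0.01 for 12 male-biased and 0.16 for 10 female-biased genes. Pdia4, a disulfide isomerase of the endoplasmic reticulum, had the lowest p among the stress genes, at 0.56 ± 0.13. It had 0.12 in WT and 0.36 in the whole-body knockout, and its second probe set gave -0.03 in the liver knockout.

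Markers of the other liver cell types were read to see whether cell content moved with treatment. The 9 hepatocyte markers had a summed level, given as the mean of log2 values, of 13.80 to 13.93 with vehicle and, without overlap, 13.95 to 13.99 with GW4064. The 16 endothelial markers had a median of 0.00 beside -0.39 in WT (-0.22 without the WT array that stood apart), the 14 Kupffer cell and macrophage markers 0.03, the 9 neutrophil markers -0.04 and the 8 erythroid and platelet markers -0.04. The 12 lymphocyte markers had a median of -0.02 and a mean level of 4.985 to 5.032 with vehicle and, without overlap, 4.875 to 4.94 with GW4064, with the immunoglobulin gene Ighm lowest at -0.91. Of these 12, 7 were below 0, against 50.8% of all genes. The 11 probe sets of Ighm ranged from -0.91 to 0.03, with 1 of them lower at an unadjusted p under 0.05 by limma. The 6 cholangiocyte markers were all above 0, with a median of 0.07 and a mean level of 4.439 to 4.486 with vehicle and, also without overlap, 4.497 to 4.56 with GW4064, low on the array in both. Pericentral and periportal hepatocyte markers had 0.06 and 0.01, and markers of adipose tissue, pancreas, intestine and kidney 0.04. The mean level of the pericentral markers was 10.2 to 10.23 with vehicle and, without overlap, 10.24 to 10.29 with GW4064. That of the adipose, pancreas, intestine and kidney markers was 5.442 to 5.534 with vehicle and, without overlap, 5.567 to 5.569 with GW4064. Of 14 stellate cell and fibroblast markers, 11 were below 0, against 50.8% of all genes, with a median of -0.08 and a mean level of 6.83 to 7.12 with vehicle and 6.77 to 6.88 with GW4064. The list's median was -0.44 in WT (-0.29 without the WT array that stood apart) and 0.11 in the whole-body knockout. The collagen genes Col3a1 (-0.95 ± 0.45) and Col1a2 (-0.42 ± 0.16) were the furthest below, and Reln (0.36), Lrat (0.27, without overlap) and Dcn (0.20) lay above 0. Col3a1 was 9.20, 8.85 and 8.23 with vehicle and 7.87, 7.71 and 7.84 with GW4064. In the whole-body knockout Col3a1 had 1.02 (0.74 without the array that stood apart), and the difference was -1.97 (95% confidence interval -3.32 to -0.63, adjusted p = 0.902). Without the WT array that stood apart, Col3a1 and Col1a2 had -0.46 and -0.28 in WT. The part of hepatocyte, stellate cell, lymphocyte, cholangiocyte and other cell content in the results above was not tested.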

How the data were processed

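Liver RNA of 18 mice was hybridised to Affymetrix arrays, and the authors deposited log2 expression per probe set, normalized together with RMA, whose version is not given in the sources used here. RMA corrects the background, equalises quantiles and summarises probes by median polish, so a shift shared by most genes would be removed. No detection call comes with the table, and precision is limited by the number of arrays. The array type named in the study's methods is not that of the deposited probe sets, so names come from the annotation of the deposited platform: 20393 of 22690 probe sets had 1 symbol, 691 several and 1606 none. Each of 12394 genes was read from 1 probe set, for 4958 of them the brightest of several by its mean across arrays, with no filter on dim genes.

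Tests used limma 3.58.1 in R 4.3.3 (lmFit, eBayes; 6 group means over all 18 arrays, 12 residual degrees of freedom), two-sided, with Benjamini-Hochberg adjustment over all genes at 0.05. Contrasts were GW4064 minus vehicle in each genotype and the differences of these effects between genotypes. The study's thresholds (unadjusted p under 0.05, 1.5 fold) and the methods' t-test were applied as well. The fit was tested on simulated data with known changes.

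The genes named were those past the adjusted test, filled to 12 on each side with the lowest p among genes past the study's thresholds without overlap, leaving out predicted genes, the WT genes past the adjusted test, Nr1h4, Nr0b2, Fgf15, Cyp7a1, Cyp8b1 and Abcb11, up to 6 genes on each side for each difference between genotypes, and up to 4 of lowest p in each of 43 lists (32 pathways and 11 cell types). Spry2, Spry4, Fos, Egr1, Reln, Dcn, Junb, Fgfr4, Nr5a2, Hnf4a, Slc10a1, Ppara, Arntl, Sqle, Fdps, Cry1, Alb, Ttr, Saa2, Saa3 and Orm1 lie outside that rule and were picked with their values in view. The members and lists were chosen with earlier results of these data known. As alternatives, the compared groups were fitted alone, arrays were weighted, the prior was trended and robust, values were centred on medians or quantile normalized, and other runs took a filter on the dimmest 40% of genes, the mean of probe sets, every probe set, the replicate number as a block, the t-test, each array left out, and, added after seeing the data, without the 2 arrays that stood apart. Promoter windows were read from RefSeq tables (GRCm38.p6). Figures used matplotlib 3.10.9.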

Additional observations from a re-analysis of the deposited data

How the results depend on the processing

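In the liver knockout, the count of 0 genes past the adjusted threshold became 2 in a fit on the compared groups alone (Csad and Dnase2a), 7 with array weights (Atxn7, Csad, Dnase2a, Fars2, Orc6, Stbd1 and Ugdh) and 2 without the 2 arrays that stood apart (Csad and Trim24), an alternative chosen after seeing the data, and it ranged from 0 to 2 when each array was left out. It stayed 0 with a trended and robust prior, median centring, quantile normalization, the filter on dim genes, the mean of probe sets and every probe set. With the replicate number as a block it was 1 (Csad). The numbers were not taken to pair the samples, since same-numbered vehicle and GW4064 arrays had deviations that correlated at 0.339, 0.141 and 0.0658. The count at the study's thresholds, 57, became 36 by the methods' t-test. For the difference from WT the count of 0 ranged from 0 to 50 as each array was left out, 50 coming without WT GW4064 replicate 3, and for the difference from the whole-body knockout it was 1 with array weights, 1 with quantile normalization, and ranged from 0 to 1. The causes were not tested.

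With single arrays left out, log2 fold changes of named genes near 0 changed sign, with these ranges: Acot2 -0.00343 to 0.16, Alb -0.0104 to 0.043, Blzf1 -0.024 to 0.042, Bmp6 -0.015 to 0.12, Epb41l2 -0.00918 to 0.079, Fgf15 -0.087 to 0.019, Fos -0.44 to 0.21, Hnf4a -0.074 to 0.039, Nr1h4 -0.19 to 0.065, Nr5a2 -0.22 to 0.47, Rab4b -0.17 to 0.046, Rell1 -0.20 to 0.036, Saa2 -1.14 to 0.13, Sstr2 -0.11 to 0.043, Tfap2a -0.037 to 0.022 and Xdh -0.00337 to 0.084. Fos and Saa2 turned sign only without liver knockout GW4064 replicate 2, and Nr5a2 did so without GW4064 replicate 1 and without vehicle replicate 2 or 3. Blzf1 was -0.10 with the mean of probe sets and -0.21 with every probe set, Hnf4a 0.000507 with array weights and 0.00324 with quantile normalization, and Ttr -0.000884 with quantile normalization. For the 125 genes followed, 1943 of the other values kept their direction and side of the threshold and 13 newly passed it. Among list medians 46 moved by more than the spread between arrays and 640 did not. With 3 arrays a group, genes of dim signal have the least precision.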
